A study of Mus musculus with 3 samples.

Results

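NK_cell_2 is a cluster labelled as natural killer (NK) cells by the depositors, among immune cells sorted from the mouse kidney. Its members were the cells that carry the name NK_cell_2 in the cluster column of the deposited count table, which numbered 527 of 20266 cells in 23 clusters. The cells came from healthy male C57BL/6J mice aged 10 weeks, with genotype wt and treatment given as untouched, and no further allele or agent is given for any group. Perfused kidneys were cut by hand into the cortex and the outer (OM) and inner (IM) medulla, digested with collagenase and DNase, sorted for live CD45+ cells and profiled with droplet-based scRNA-seq. The work was done at 3 facilities (Aachen, Bonn and Hamburg). The cells of 1 compartment at 1 facility are called a library here, which gives 9 libraries, with the facility as the replicate. Barcode suffixes numbered 6 at Aachen, 3 at Bonn and 1 at Hamburg, so the number of sequencing runs behind each library is not known. The number of mice behind each library is not given in the sources used here. The p-values below measure only the spread between the facilities' libraries. In the tests of genes this spread is estimated partly from all genes together, not from each gene alone.

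NK cells are innate lymphocytes that kill stressed, infected or transformed cells without an antigen receptor and secrete interferon gamma and chemokines. They read a balance of inhibitory and activating receptors, many of which, such as the Klr and Ly49 (Klra) proteins, are encoded side by side in the NK gene complex. Circulating NK cells are rich in granzymes and perforin and carry receptors for leaving tissue, whereas tissue-resident NK cells and the related ILC1 are held in organs and express adhesion and chemokine receptors such as CD49a (Itga1) and CXCR6. ILC2 are innate lymphocytes of another branch that make type 2 cytokines, and T cells differ from all of these by the CD3 and T cell receptor genes.

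NK_cell_2 held 126 cells from Aachen, 142 from Bonn and 259 from Hamburg. Per library the numbers ran from 12 in the Bonn OM to 119 in the Hamburg cortex. The median cell had 972.5 UMIs (unique molecular identifiers, which count molecules) in Aachen, 3292 in Bonn and 3282 in Hamburg, so that single Aachen cells were shallower. Aachen also differed in the genes it listed, since 7959 genes were at 0 over all cells at Aachen and at neither other facility, among them the T cell receptor constant genes and immunoglobulin genes. No barcode was shared between libraries within NK_cell_2, while 219 barcodes occurred in more than 1 library over all cells. Levels are given as UMIs per 1000000 UMIs (CPM), summed over the cluster's cells in a library. As 10x libraries read transcript ends, a level is not divided by gene length.

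The markers Klrb1c, Nkg7 and Xcl1 were present in all 9 libraries. The cluster was drawn from these same transcripts, so marker levels describe the label and do not test it. Xcl1, which encodes the chemokine XCL1 that attracts cross-presenting dendritic cells, ran from 2803 to 5184 CPM over the 9 libraries with a median of 4757. Nkg7, a cytotoxic granule protein, had a median of 2113 CPM (1415 to 2720), and Klrb1c, the NK1.1 antigen, had 421 CPM (328 to 865). Ncr1, which encodes the activating receptor NKp46 and defines NK cells and ILC1, had a median of 1069 CPM (512 to 1750). In T cells Ncr1 reached at most 13.7 CPM and in ILC2 at most 24.5 CPM. The genes lie apart, with Xcl1 at chr1:164931644-164935527, Klrb1c at chr6:128778485-128789215 and Nkg7 at chr7:43437073-43438249 (mm10). Summed over 10 NK markers, NK_cell_2 had 14925 to 17819 CPM, against 14233 to 21168 CPM in NK_cell_1, 12.6 to 980 CPM in ILC2 and 2052 to 3692 CPM in T cells.

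UMIs of Xcl1 were seen in 92.1% of NK_cell_2 cells at Aachen, 95.1% at Bonn and 93.8% at Hamburg. When every cell was thinned to 500 UMIs, which left out 10 Aachen cells, the shares were 77.6%, 70.4% and 70.7%. In B cells of cluster B_cell_1, which should lack the gene and whose median depths were 731, 2747 and 2548 UMIs, the thinned shares were 1.35%, 0.123% and 0.0882%. Xcl1 was thus detected in most NK_cell_2 cells at every facility, in a far larger share than in B_cell_1. The source of the Xcl1 UMIs in B cells was not tested.

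The levels of NK_cell_2 were then set beside those of the other NK cluster. NK_cell_2 carried more of the chemokine receptor Cxcr6, lymphotoxin beta (Ltb) and Xcl1. NK_cell_1, with 606 cells, carried more granzyme, perforin and Ly49 receptor transcripts and more Ccl5. The clusters were drawn from these same genes, so all levels beside another cluster are a description and carry no test. The Bonn OM held 7 NK_cell_1 cells and was left out of this pairing, which leaves 8 libraries. Differences, their signs and overlap use these 8, whereas the medians and ranges printed for NK_cell_2 cover all 9 libraries. Over 5155 genes that averaged at least 25 CPM over the pair of clusters, 33 (0.64%) were higher in NK_cell_2 without overlap of the library ranges and 35 (0.679%) were lower. By the looser measure of a difference of 1 sign in every library, 191 (3.71%) were higher and 132 (2.56%) lower. Of the 10 NK markers, 2 were higher and 2 lower in every library. Nkg7 was lower in NK_cell_2 without overlap, with 2882 to 6048 CPM in NK_cell_1, and Klrb1c was lower in 7 of 8 libraries.

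**Figure D1:**
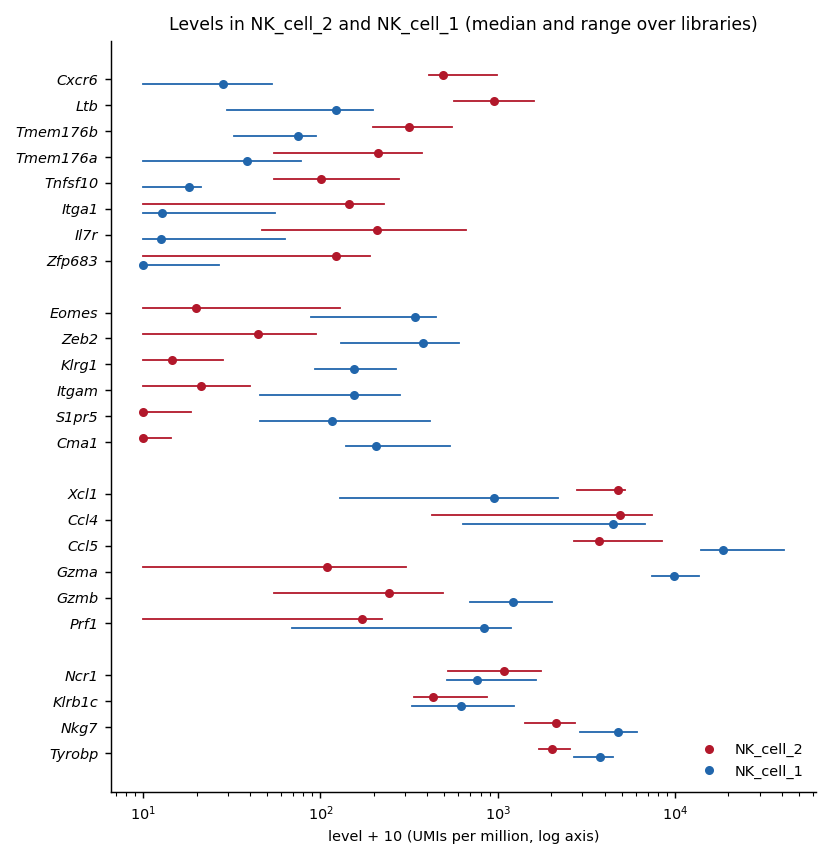
Levels of named genes in NK_cell_2 and NK_cell_1, in CPM plus 10 on a log axis, with the median as a point and the range over libraries as a line (9 libraries of NK_cell_2, 8 of NK_cell_1). Cxcr6, Ltb and Xcl1 lie higher in NK_cell_2, whereas Gzma, Gzmb and Ccl5 lie lower, without overlap of the library ranges.

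Genes that mark ILC1 and tissue-resident NK cells ran higher in NK_cell_2 than in NK_cell_1. Of the 10 listed genes, 7 were higher than in NK_cell_1 in every library and 5 did not overlap at all, with a median difference of 1.63 on the scale of log2(CPM + 50). Cxcr6, which binds the membrane-bound chemokine CXCL16, had a median of 482 CPM (401 to 984) against 18.4 CPM (0 to 43.4) in NK_cell_1. Ltb, a subunit of the lymphotoxin that organises lymphoid tissue, had 938 CPM (558 to 1593) against 113 CPM (19.7 to 188). Its ranges in ILC2 (910 to 1922 CPM) and T cells (583 to 1207 CPM) overlapped those of NK_cell_2.

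The other genes of this list were less abundant. Tnfsf10, the death ligand TRAIL, had a median of 91.2 CPM against 8.24 CPM in NK_cell_1. Il7r, the receptor for the survival cytokine IL-7, had 199 CPM against 2.63 CPM, and Inpp4b, a phosphoinositide phosphatase, had 209 CPM against 5.43 CPM. Both were higher in every library, but their ranges overlapped. Itga1, the collagen-binding integrin CD49a that is widely used to gate resident NK cells and ILC1, had a median of 135 CPM (0 to 218) against 2.72 CPM (0 to 45.7). Itga1 was higher in 6 of 8 libraries and was at 0 in the Aachen OM and IM. Zfp683, the residency transcription factor Hobit, had 112 CPM (0 to 180) against 0 CPM (0 to 16.6).

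Of the 10 markers of circulating mature NK cells, 8 were lower than in NK_cell_1 in every library and 6 did not overlap, with a median difference of -1.71. S1pr5, the sphingosine phosphate receptor through which NK cells leave tissue, had a median of 0 CPM (0 to 8.73) against 106 CPM (35.4 to 406). Zeb2, a transcription factor of NK cell maturation, had 34.4 CPM against 368 CPM, and the integrin Itgam (CD11b) had 11.3 CPM against 144 CPM. Ly6c2 overlapped, with 405 CPM (128 to 539) against 560 CPM (404 to 1262).

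Eomes, the T-box factor that separates NK cells from ILC1, was low in NK_cell_2. It was listed at 0 in all 3 Aachen libraries and the Bonn OM, had 9.82 CPM in the Bonn cortex, and 23.1, 26.1 and 29.2 CPM in the Hamburg cortex, OM and IM. The Bonn IM, with 13 cells, stood apart at 119 CPM. NK_cell_1 had 78.8 to 437 CPM. The related factor Tbx21 (T-bet), which both NK cells and ILC1 need, was present in both clusters, at a median of 295 CPM (54.7 to 471) in NK_cell_2 and 232 CPM (70.7 to 480) in NK_cell_1. Whether NK_cell_2 holds tissue-resident NK cells, ILC1 or both was not tested, and its name is kept as a label only.

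The lists were also counted cell by cell. Over cells thinned to 500 UMIs, at least 1 UMI of the resident list without Ltb, which B cells also use, was found in 42.2% of NK_cell_2 cells at Aachen, 67.6% at Bonn and 56.8% at Hamburg. NK_cell_1 had 6.63%, 5.79% and 5.15%, near the 3.19%, 4.37% and 5.91% of B_cell_1. ILC2, with 39.2%, 74.0% and 69.6%, and T cells, with 31.7%, 56.8% and 44.1%, held the resident list in shares like those of NK_cell_2. A UMI of the circulating list without Klf2 was found in 10.3%, 16.9% and 19.3% of NK_cell_2 cells, against 61.4%, 75.8% and 59.2% of NK_cell_1. B_cell_1 had 14.3%, 27.1% and 22.9%, and no cluster was taken as a background for this list.

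Cytotoxic effector genes ran lower in NK_cell_2 than in NK_cell_1. Summed over 14 genes they had a median of 3518.5 CPM (2080 to 5915) in NK_cell_2 and 14369 CPM in NK_cell_1. The sum was 1546 CPM (784 to 3994) in ILC2 and 2311 CPM (1493 to 3409) in T cells. Of 12 effector genes at or above 25 CPM, 7 were lower than in NK_cell_1 in every library, 3 of them without overlap, and 1 was higher. Gzma, which encodes granzyme A, had 18.2, 46.9 and 99.1 CPM in the cortex, OM and IM of Aachen, 231, 0 and 89.5 CPM at Bonn and 281, 208 and 294 CPM at Hamburg. In NK_cell_1 it had a median of 9835 CPM (7362 to 13669), a difference of -5.84 on the log2(CPM + 50) scale. Unthinned, Gzma was found in 3.97%, 7.04% and 11.2% of NK_cell_2 cells at Aachen, Bonn and Hamburg, against at most 0.500% of B_cell_1 at any facility and 97.3%, 98.9% and 98.3% of NK_cell_1.

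Gzmb (granzyme B) had a median of 234 CPM (44.9 to 481) against 1202 CPM (690 to 2023). Prf1, the pore-forming protein perforin, had 162 CPM (0 to 214) against 828 CPM (59.1 to 1170), lower in 8 of 8 libraries though the ranges overlapped. Cst7, an inhibitor of the proteases that activate granzymes, had 112 CPM against 295 CPM. The exception was Ctsw (cathepsin W, a protease of cytotoxic cells), which was higher in 8 of 8 libraries at 1158 CPM (858 to 1729) against 883 CPM (552 to 1047). The death ligand Fasl overlapped, at 195 CPM (0 to 277) against 244 CPM (0 to 431), higher in 4 libraries and lower in 4.

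Chemokine genes went in both directions. Xcl1 in NK_cell_1 had a median of 937 CPM (118 to 2185), below every NK_cell_2 library. Ccl5, a chemokine for T cells and monocytes, was the reverse, at 3707 CPM (2684 to 8374) in NK_cell_2 against 18698 CPM (14001 to 41295). Ccl4 and Ifng, which encodes interferon gamma, overlapped, with Ccl4 at 4903 CPM (417 to 7425) against 4444 CPM (628 to 6720) and Ifng at 512 CPM (106 to 1508) against 503 CPM (61.5 to 1294). Both were higher in NK_cell_2 in 7 of 8 libraries.

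Receptor genes of the NK gene complex, where 23 genes of the lists lie within 1.78 Mb at chr6:128609227-130386874 (mm10), went in both directions. Among the genes outside the Klra family, NK_cell_2 was higher in 8 of 8 libraries for Klrb1b, Klrb1f, Klrk1 and Klrc1. Their neighbours Klrb1c, Klre1 and Klri2 were lower in 7 of 8 libraries, with median differences of -0.42, -0.85 and -1.03, and Klrb1a and Klrc2 were lower in 6 of 8. Klrb1b, an inhibitory receptor for Clr proteins, had 596 CPM (347 to 875) against 188 CPM (33.7 to 296), and Klrc1, the inhibitory NKG2A chain that binds Qa-1, had 1022 CPM (686 to 1279) against 485 CPM (315 to 549). Klrk1, the activating receptor NKG2D, differed little, at 1032 CPM against 998 CPM.

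**Figure D2:**
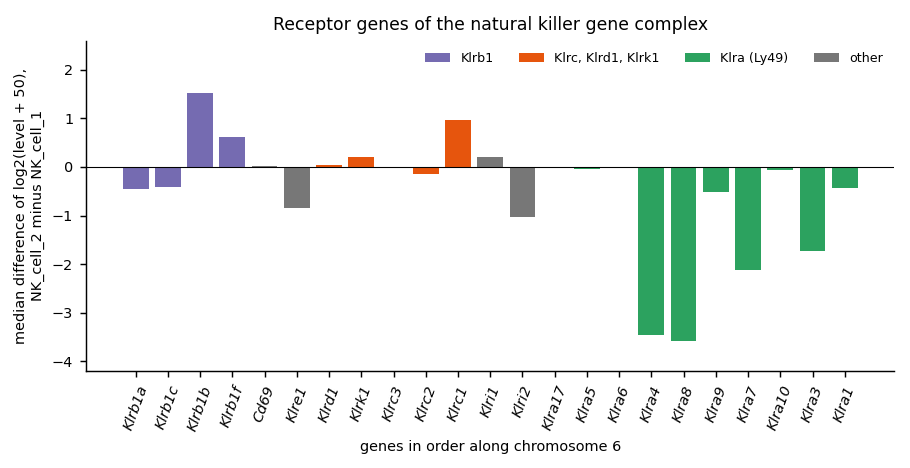
Difference in level between NK_cell_2 and NK_cell_1, as the median over 8 libraries of log2(CPM + 50), drawn as bars for 23 genes of the NK gene complex in their order along chromosome 6. Klrb1b and Klrc1 lie furthest above 0, Klri2 and Klre1 lie below 0, and Klra8, Klra4, Klra7 and Klra3 lie furthest below 0.

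Of 6 Ly49 genes at or above 25 CPM, 4 were lower in 8 of 8 libraries without overlap. Klra8 (Ly49H in C57BL/6 mice, the activating receptor for a cytomegalovirus protein) had 8.23 CPM (0 to 33) against 750 CPM (493 to 1034), and Klra4 (Ly49D, also activating) had 0 CPM (0 to 4.01) against 530 CPM (296 to 904). The inhibitory Klra7 had 29.8 CPM against 372 CPM and Klra3 had 0 CPM against 175 CPM. Klra9, with 180 CPM (112 to 474) against 382 CPM (232 to 862), and Klra1, with 22.4 CPM (0 to 75.7) against 67.2 CPM (35.2 to 180), had overlapping ranges, and Klra1 was lower in 6 of 8 libraries. Members of the Klra and Klrc families are near copies of each other, so the split of reads among them is uncertain.

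Outside the complex, Cd160, a receptor of the HVEM and MHC class I family of ligands, had 337 CPM (262 to 537) against 52.5 CPM (0 to 121). Cd226 (DNAM-1, an activating adhesion receptor) had 298 CPM against 54.3 CPM, higher in 8 of 8 libraries. Cxcr3, the receptor for interferon-induced chemokines, had 231 CPM (141 to 444) against 53 CPM (11.2 to 111) without overlap. Klrg1, an inhibitory receptor of mature NK cells, had 4.61 CPM (0 to 18.2) against 145 CPM (82.6 to 256).

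Among 23 transcription factor genes at or above 25 CPM, 3 were higher in NK_cell_2 in every library, none without overlap, and 4 were lower, 2 of them without overlap. The higher genes were Tox, which acts early in innate lymphoid cell development, at 141 CPM against 35.7 CPM, Ikzf2 (Helios) at 128 CPM against 13.8 CPM, and Rora at 135 CPM against 30.3 CPM. The lower genes were Eomes, Zeb2, Irf8 and Klf2. Irf8 had 116 CPM (44.9 to 258) against 821 CPM (611 to 1096), without overlap. Klf2, which drives expression of exit receptors such as S1pr1, had 875 CPM (89.5 to 3030) against 3744 CPM (1212 to 5420) and spread widely between facilities in both clusters.

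The genes with the largest differences overall also held members of no list. Higher in NK_cell_2 in every library were Cd7, an immunoglobulin family surface protein, at 2317 CPM (1486 to 2970) against 502 CPM (296 to 671), S100a4 at 652 CPM against 70.6 CPM, Ly6e at 1916 CPM against 605 CPM, and Ramp1, a subunit of the receptor for the neuropeptide CGRP, at 258 CPM against 13.0 CPM. Cited4 had 459 CPM against 97.1 CPM and Nrgn 264 CPM against 49.5 CPM. Lgals1 (galectin-1) was lower, at 298 CPM (224 to 704) against 3171 CPM (1054 to 4309).

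Beside ILC2 (424 cells, all 9 libraries), 96 of 5236 genes (1.83%) were higher in NK_cell_2 without overlap and 52 (0.993%) were lower. All 10 NK markers were higher without overlap. Of the resident list, 0 of 10 genes were apart without overlap in either direction, and 1 was lower in NK_cell_2 in every library. Itga1 still differed in its share of cells. It was found in 0%, 1.30% and 0% of ILC2 cells at Aachen, Bonn and Hamburg. In NK_cell_2 it was found in 0.794%, 44.4% and 31.7% of cells. Cxcr6 (189 to 747 CPM), Il7r (259 to 1252 CPM), Inpp4b (73.5 to 945 CPM) and Ltb were all present in ILC2. ILC2 in turn had more Gata3, their lineage factor, at 719 CPM (539 to 1025) against 87.2 CPM (46.9 to 180) in NK_cell_2. Il1rl1, the receptor for IL-33, had 289 CPM (107 to 383) in ILC2 against 0 CPM (0 to 2.45), and Areg (amphiregulin) 778 CPM (145 to 3036) against 2.45 CPM (0 to 127).

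Beside T cells (5236 cells of clusters T_cell_1 to T_cell_4), 63 of 5117 genes (1.23%) were higher in NK_cell_2 without overlap and 49 (0.958%) were lower. The signal adapters Tyrobp (DAP12), at 2014 CPM against 63.6 CPM, and Fcer1g, at 2622 CPM against 102 CPM, were among the higher genes. Of the 10 resident genes 1 was higher without overlap, with a median difference of 0.29, and Cxcr6 had 209 to 836 CPM in T cells. Of 9 T cell markers, 6 were lower without overlap, namely Cd3d, Cd3e, Cd3g, Cd4, Cd8a and Cd8b1. The nearest T cell clusters were T_cell_1 and T_cell_2, where Xcl1 had 464 to 1065 CPM at the 3 facilities and Nkg7 1001 to 2766 CPM. In T_cell_3 and T_cell_4 Xcl1 stayed at or under 37.5 CPM.

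**Figure D3:**
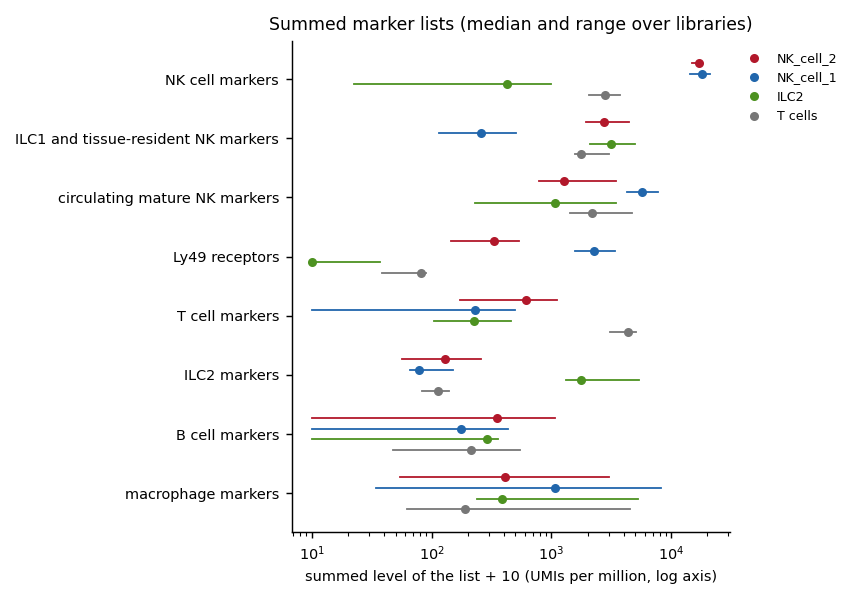
Summed levels of marker lists in NK_cell_2, NK_cell_1, ILC2 and T cells, in CPM plus 10 on a log axis, with the median over libraries as a point and the range as a line. The NK markers of NK_cell_2 sum to 14925 to 17819 CPM, its resident sum lies above that of NK_cell_1, and its Ly49 and T cell sums lie below those of NK_cell_1 and T cells.

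CD3 transcripts were not absent from NK_cell_2. Cd3e had a median of 77.7 CPM (0 to 268) and Cd3g had 113 CPM (36.5 to 250), against 972 and 1162 CPM in T cells. At Bonn and Hamburg the T cell receptor gene Trbc2 had 67.3 to 242 CPM in NK_cell_2 and 219 to 365 CPM in T cells. Trac, another receptor gene, had 17.2 to 119 CPM in NK_cell_2 there and 253 to 306 CPM in T cells. At least 2 UMIs of Cd3d, Cd3e and Cd3g together were held by 50 of 527 cells (9.49%), with 6.35% at Aachen, 14.1% at Bonn and 8.49% at Hamburg. Pooled over facilities, these 50 cells had 546 CPM of Ncr1 and 7101 CPM of Ccl5, against 1248 and 3492 CPM in the 446 cells with no CD3 UMI. Xcl1 was at 3688 CPM in them and 4642 CPM in the others, and Fcer1g at 2315 and 2747 CPM. Cd8a, a T cell coreceptor chain, was at 113 CPM in the 50 cells and 0.805 CPM in the others, and Gzma at 612 and 161 CPM. The 50 cells were chosen by their transcripts, so these values are a description.

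Across the compartments, NK_cell_2 made up 3.15%, 3.19% and 4.86% of all cells in the cortex at Aachen, Bonn and Hamburg. In the OM the shares were 0.816%, 1.93% and 2.73%, and in the IM 2.51%, 0.694% and 3.55%. Both medullary libraries thus had a lower share than the cortex of the same facility, 3 of 3 times. The Wilson 95% intervals, which cover counting error only, ran from 0.572% to 1.16% for the Aachen OM and from 2.36% to 4.21% for the Aachen cortex.

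Averaged over facilities, the share was 3.74% ± 0.973 (SD, n = 3) for cortex, 1.83% ± 0.961 for OM and 2.25% ± 1.44 for IM. The mean of OM and IM lay 1.49, 1.88 and 1.72 percentage points below the cortex at Aachen, Bonn and Hamburg. The mean difference of -1.70 points (SD 0.194, n = 3) gave p = 0.0741 in a two-sided exact permutation test within facilities, where the smallest p the 27 arrangements allow is 0.037. The difference therefore did not pass 0.05. For either medullary compartment alone against the cortex, 3 pairs allow no p below 0.25.

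**Figure D4:**
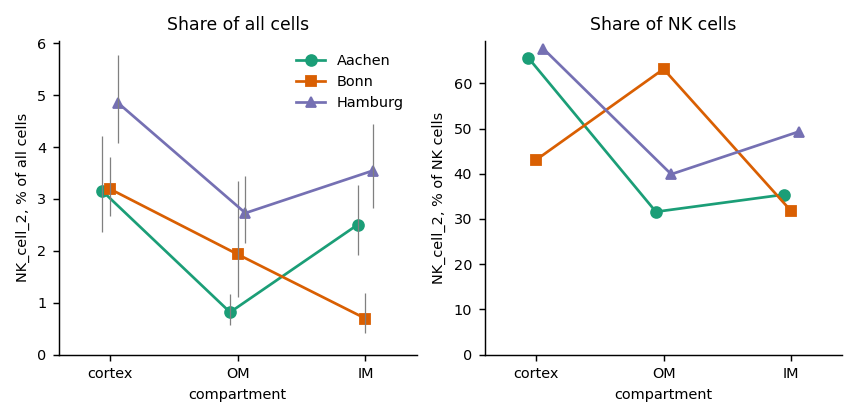
Share of NK_cell_2 in percent of all cells and of the 2 NK clusters by compartment, with a line per facility and, for all cells, Wilson 95% intervals as bars. Among all cells each facility's cortex point lies above its OM and IM points, and among NK cells Bonn has its highest share in the OM.

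The share of NK_cell_1 differed by 0.0525 points on average (SD 2.57, n = 3, p = 0.926 in the same exact permutation test), with 1.52 points at Aachen, -2.92 at Bonn and 1.55 at Hamburg. ILC2 differed by 0.126 points (exact permutation p = 0.667). Whether NK_cell_2 differed from these clusters in its change was not tested. T cells made up 34.6% ± 5.45 of cortex cells and lay 13.1 points lower in the medulla on average (exact permutation p = 0.148). Because these are shares of sorted cells, fewer NK_cell_2 cells and more cells of other clusters cannot be told apart. Among NK cells, ILC2 and T cells together, the cortex, OM and IM shares of NK_cell_2 were 8.37%, 4.74% and 5.99% at Aachen, 7.75%, 8.05% and 3.66% at Bonn and 9.67%, 9.82% and 8.70% at Hamburg, so that the OM was above the cortex at 2 of 3 facilities. The mean difference of medulla and cortex was -1.76 points (exact permutation p = 0.296). Among NK cells only, NK_cell_2 made up 65.7%, 31.6% and 35.4% in the cortex, OM and IM of Aachen, 43.0%, 63.2% and 31.7% at Bonn and 67.6%, 39.9% and 49.3% at Hamburg. The mean difference of medulla and cortex was -16.9 points (exact permutation p = 0.185), with Bonn at 4.42 points in the other direction, where the OM share rests on 12 NK_cell_2 and 7 NK_cell_1 cells.

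To ask whether the cells' expression differed between compartments, UMIs were summed per library and 1155 genes were fitted in edgeR (quasi-likelihood test, facility as a block). For OM and IM together against the cortex, 0 genes passed an adjusted p of 0.05 (0%), while 61 had an unadjusted p under 0.05 and DESeq2 also called 0. The defining genes showed small differences, with Xcl1 at 0.03 (SE 0.14), Nkg7 at -0.05 (SE 0.13), Klrb1c at 0.11 (SE 0.16) and Cxcr6 at 0.05 (SE 0.17) on the log2 scale. Of the resident list, 6 genes could be tested and 0 were called, with a median of 0.26. Of the 10 NK markers all were tested and 0 called, with a median of -0.03, equal to the median of -0.03 over all genes tested. Without Bonn 10 genes were called, of which Cd74, H2-Aa, H2-Ab1, H2-Eb1, Apoe, Lyz2 and C1qa were higher and Gzmc, Fos and Gm8797 lower, and without Hamburg 2 (Ccl3 and Ccl4, both lower). Without the facility block 0 genes were called in this or any other compartment comparison of NK_cell_2. The Bonn OM and IM held 12 and 13 cells.

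For the IM against the cortex, 1 of 1155 genes (0.0866%) was called. H2-Ab1, the beta chain of the MHC class II molecule I-A, which presents peptides to CD4 T cells, lies at chr17:34257689-34269419 (mm10). Its level in the cortex, OM and IM was 255, 610 and 2130 CPM at Aachen, 245, 247 and 298 CPM at Bonn and 50.4, 109 and 242 CPM at Hamburg. The IM was highest at each facility, although at Bonn the values nearly coincided. The log2 change was 1.94 (SE 0.33, adjusted p = 0.0168 in edgeR), higher in 3 of 3 facilities. Without Aachen the change was 1.29 (adjusted p = 0.933) and 0 genes were called, and without Bonn 10 genes were called, among them Cd74, H2-Aa and H2-Eb1.

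Cd74 (the invariant chain), H2-Aa and H2-Eb1 belong to the same presentation pathway and were not called. Against the cortex their IM differences were 1.71 (SE 0.38, adjusted p = 0.107), 1.50 (SE 0.41, adjusted p = 0.495) and 1.80 (SE 0.36, adjusted p = 0.0551). The sum of the 4 genes, a set chosen after their values were seen, was 1058, 4127 and 9988 CPM in the cortex, OM and IM of Aachen, 2008, 2648 and 1551 CPM at Bonn and 572, 1411 and 2382 CPM at Hamburg. The IM was above the cortex at Aachen and Hamburg and below it at Bonn.

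Macrophage transcripts were likewise highest in the IM at Aachen and Hamburg. The sum of 8 macrophage markers in NK_cell_2 was 401, 1594 and 3005 CPM in the cortex, OM and IM of Aachen, 447, 44.9 and 268 CPM at Bonn and 57.1, 78.5 and 531 CPM at Hamburg. At Aachen the same sum in T cells was 1358, 4526 and 3380 CPM and that of the 4 MHC class II genes 5199, 11862 and 12804 CPM. At Hamburg these sums in T cells were highest in the OM, at 52.7, 179 and 62.0 CPM and at 396, 1286 and 598 CPM. At Bonn they were 231, 130 and 177 CPM and 1846, 1520 and 1127 CPM. In NK_cell_1 the 4 genes summed to 4455, 8373 and 2132 CPM at Aachen and 5368, 7511 and 6080 CPM at Hamburg. The source of these transcripts was not tested. Csf1r, a defining macrophage receptor, had a median of 3.65 CPM (0 to 99.1) in NK_cell_2. Without the 164 cells (31.1%) that held at least 2 macrophage or 2 B cell UMIs, or 1 of each, 0 genes were called for the IM against the cortex and H2-Ab1 differed by 0.86 (adjusted p = 1 in edgeR).

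For the OM against the cortex, 1 of 1155 genes (0.0866%) was called, and for the OM against the IM likewise 1 (0.0866%). In both it was AY036118, a long noncoding RNA at chr17:39847113-39848035 (mm10) that lies inside Gm42418 on the other strand. Its level in the cortex, OM and IM was 1406, 4689 and 1640 CPM at Bonn and 892, 1913 and 925 CPM at Hamburg, and it was 0, 0 and 16.5 CPM at Aachen. The OM was higher than the cortex by 1.40 (SE 0.20, adjusted p = 0.00235 in edgeR) and higher than the IM by 1.25 (SE 0.22, adjusted p = 0.0222). Without Bonn these values were 1.08 and 1.04 and neither was called, and without Hamburg the OM against the IM was not called (1.47). Reads of AY036118 and Gm42418 cannot be told apart unless strand was used, and their locus is known to hold ribosomal RNA sequence. T cells had 1164, 2844 and 1515 CPM of AY036118 at Bonn and 951, 1104 and 916 CPM at Hamburg.

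Lars2, the mitochondrial leucyl-tRNA synthetase, had the same shape without being called, with 1181, 4712 and 1163 CPM at Bonn and 2162, 3101 and 1876 CPM at Hamburg (log2 difference of OM and cortex 1.23, SE 0.27, adjusted p = 0.227). It was 0 in all 3 Aachen libraries of NK_cell_2. The Bonn OM value rests on 12 cells.

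Of 16 chemokine and cytokine genes, 7 could be tested between medulla and cortex and 0 were called, with 3 above 0 and 4 below and a median of -0.20. Of lower genes over all, the predicted gene Gm8797 had the smallest p, with -1.34 (SE 0.32, adjusted p = 0.227) and lower in 2 of 2 facilities that measured it. In the cortex, OM and IM it had 1532, 375 and 825 CPM at Aachen but only 9.15, 4.30 and 8.29 CPM at Hamburg. At Aachen NK_cell_1, with 1132, 453 and 685 CPM, and T cells, with 1373, 432 and 761 CPM, had the same shape. Ccl4, which encodes a chemokine for monocytes and T cells, had 7425, 4877 and 4903 CPM in the cortex, OM and IM of Aachen, 2334, 494 and 417 CPM at Bonn and 6978, 7247 and 5621 CPM at Hamburg. The mean of OM and IM was lower in 3 of 3 facilities, with a log2 difference of -0.85 (SE 0.23, adjusted p = 0.363). Ccl3 had -0.97 (SE 0.31, adjusted p = 0.557). The transcription factor Cebpb, at -0.67 (SE 0.19, adjusted p = 0.393), and the granule proteoglycan Srgn, at -0.51 (SE 0.15, adjusted p = 0.42), were also lower in 3 of 3 facilities. Atf3, a stress-induced transcription factor, had -0.90 (SE 0.26, adjusted p = 0.425) and was lower in 1 of 2. Of higher genes, the survival gene Bcl2 had 0.62 (SE 0.20, adjusted p = 0.557), again in 3 of 3 facilities.

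**Figure D5:**
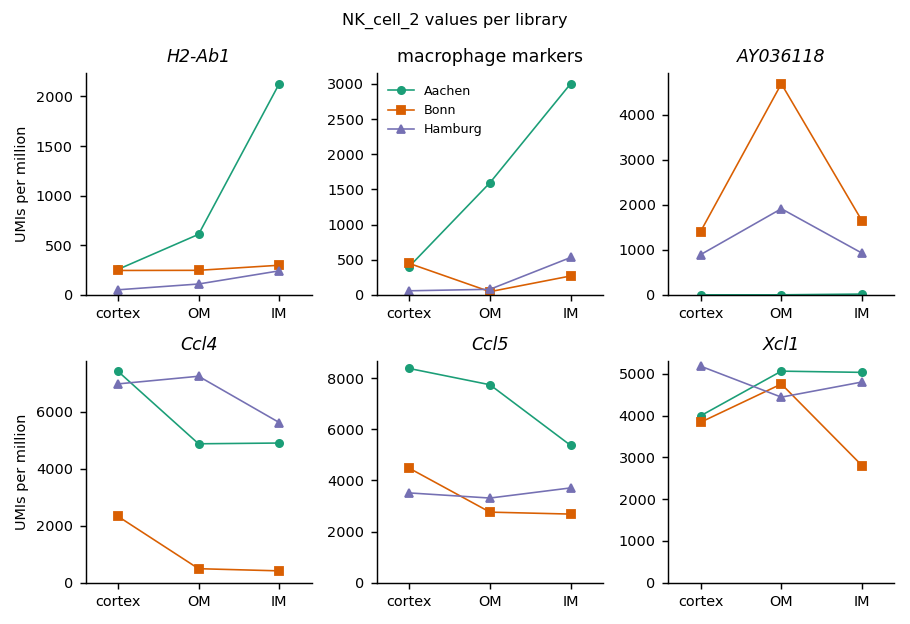
Levels of 5 genes and of the summed macrophage markers in NK_cell_2 in the cortex, OM and IM, in CPM from 0, with a line per facility. H2-Ab1 is highest in the IM at each facility, and AY036118 peaks in the OM at Bonn and Hamburg and is near 0 at Aachen.

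The compartment differences of NK_cell_2 were then set against those of NK_cell_1 and of T cells with an interaction term. Between the NK clusters, 12 of 4217 genes (0.285%) differed in the change from cortex to medulla, and against T cells 5 of 7097 (0.0705%). Ccl5 was called in both. In NK_cell_2 it had 8374, 7737 and 5366 CPM in the cortex, OM and IM of Aachen, 4477, 2760 and 2684 CPM at Bonn and 3511, 3310 and 3707 CPM at Hamburg. In NK_cell_1 it had 27016, 41295 and 34081 CPM at Aachen, 16673 and 20331 CPM in the cortex and IM of Bonn, and 14001, 17065 and 16090 CPM at Hamburg.

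The medulla was below the cortex for Ccl5 in NK_cell_2 at 3 of 3 facilities, though at Hamburg by very little, and above it in NK_cell_1 and in T cells at 3 of 3. The change in NK_cell_2 minus that in NK_cell_1 was -0.82 (SE 0.17, adjusted p = 0.000433 in edgeR), and minus that in T cells it was -0.80 (SE 0.19, adjusted p = 0.0286). Within NK_cell_2 alone, Ccl5 changed by -0.36 (SE 0.13, adjusted p = 0.801) and was not called. The difference from NK_cell_1 stayed past 0.05 without each facility in turn (-0.62 to -0.94), and the difference from T cells did not without Bonn (-0.60) or without Hamburg (-1.01). DESeq2 called 0 genes for either interaction, with 38 and 59 genes at an unadjusted p under 0.05. With few libraries per gene, edgeR drew the spread behind its interaction p-values mostly from all genes together.

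Of the other genes that differed from NK_cell_1, 8 were MHC class II, macrophage or B cell genes (Cd74, H2-Aa, H2-Ab1, H2-Eb1, Apoe, Lyz2, C1qa and Cd79a). Beside them, macrophage markers summed to 8168, 3921 and 539 CPM in NK_cell_1 in the cortex, OM and IM of Aachen, where the cortex held 23 cells. Their part in these results was not tested. Il7r was at 36.5, 46.9 and 99.1 CPM in NK_cell_2 in the cortex, OM and IM of Aachen, 258, 180 and 656 CPM at Bonn and 199, 260 and 224 CPM at Hamburg. The medulla mean was above the cortex at 3 of 3 facilities, and the interaction was 2.75 (SE 0.70, adjusted p = 0.0336). At Bonn the OM of NK_cell_2 was below the cortex, and its IM value rests on 13 cells. NK_cell_1 had little Il7r, with 45.2 and 0 CPM in the cortex and IM of Bonn and 53.4, 5.27 and 34.6 CPM at Hamburg. It had no Il7r UMI at Aachen, so that 2 facilities carry its part. Without Bonn (2.14) or Hamburg (4.16) the Il7r interaction was not called.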

How the data were processed

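Single-cell RNA-seq libraries of CD45+ immune cells from cortex, OM and IM at 3 facilities were analysed from a single deposited table of 20266 cells and 32886 genes. Per the labels and the study's methods, the authors processed reads with Cell Ranger against mm10 and filtered, integrated and clustered cells in Seurat, whose names were used as they stand. The deposited values are estimated counts of UMIs per gene and cell without scaling. They are whole numbers at Aachen and Bonn, whereas 0.114% of the Hamburg values in NK_cell_2 are whole, for which no reason is given in the sources used here. NK_cell_2 summed to 136710 UMIs at Aachen, 485533 at Bonn and 891576 at Hamburg.

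Counts were summed per library and cluster over libraries with at least 10 cells and rounded. Genes kept by filterByExpr were fitted with edgeR 4.0.16 (R 4.3.3), TMM factors and facility as a block, at a Benjamini-Hochberg adjusted p of 0.05. DESeq2 1.42.0, RLE factors, no filter, no block, facilities left out in turn, cells thinned to 500 UMIs, cells without macrophage or B cell transcripts, and libraries of at least 20 cells were alternatives. Scripts were tested on simulated data. Facilities pair the libraries: deviations from compartment means correlated at 0.70 to 0.91 for the 9 pairs of the same facility and at -0.81 to 0.35 for the 27 others, over 1093 genes. Levels are CPM, and differences between clusters are on log2(CPM + 50). No doublet caller was run. Gene positions are from GENCODE on mm10.

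Named genes were Klrb1c, Nkg7 and Xcl1, members of the gene lists, the 15 genes per direction with the largest difference from NK_cell_1 (10 from ILC2 and from T cells) at 50 CPM or more and of the same sign in every library, and called genes, or the 5 of smallest p where fewer than 5 were called. The members and lists were chosen with earlier results of these data known.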

Additional observations from a re-analysis of the deposited data

Results flagged for a closer look

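Groups here hold 3 libraries each, too few to look for outlying samples. The change from cortex to medulla differed between NK_cell_2 and another class by edgeR's test of the difference for 17 gene and class pairs. All values are the log2 change in NK_cell_2 minus that in the other class. Beside NK_cell_1 they were Apoe at 5.68, Cd74 at 1.86, H2-Aa at 1.71, H2-Ab1 at 1.83, H2-Eb1 at 1.64, Lyz2 at 3.65, C1qa at 3.41 and Cd79a at 3.13, which are MHC class II, macrophage or B cell genes. Lymphoid genes were Il7r at 2.75, Inpp4b at 3.02 and Ccl5 at -0.82, and the neutrophil chemokine Cxcl2 had -7.84. In the cortex, OM and IM of Hamburg Cxcl2 had 63.9, 7.35 and 17.7 CPM in NK_cell_2 and 2.47, 269 and 206 CPM in NK_cell_1. At Aachen it had 18.2, 93.8 and 0 CPM against 0, 39.4 and 11.2 CPM, and at Bonn it was 0 in both.

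Apoe was at 5552 CPM in the 23 NK_cell_1 cells of the Aachen cortex and at 54.7 CPM in NK_cell_2 there, and without Aachen its difference turned to -1.49. Inpp4b was at 253, 247 and 209 CPM in NK_cell_2 in the cortex, OM and IM of Bonn and at 150, 266 and 267 CPM at Hamburg, against 74.2, 18.8 and 12.6 CPM in NK_cell_1 at Hamburg.

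Beside T cells the values were Ccl5 at -0.80, Ccl3 at -0.99, Nrgn at -2.35, Gzma at -1.15 and Ccl1 at -5.98. Nrgn, which encodes neurogranin, a calmodulin-binding protein, was at 149 to 375 CPM in NK_cell_2 and at 2.30 to 52.5 CPM in T cells. Ccl1 was above 0 in 2 NK_cell_2 libraries, with 49.1 CPM in the Bonn cortex and 2.61 CPM in the Hamburg OM, and without Bonn its difference turned to 1.69.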

How the results depend on the processing

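Shares kept their direction under every alternative run. NK_cell_2 among all cells lay 1.61 to 1.80 points lower in the medulla with a facility left out, and among NK cells 9.30 to 27.6 points lower. Counts of genes called moved more. Without the replicate block for facility, 0 genes were called for OM against cortex, IM against cortex, OM against IM and both interactions, and 0 for the medulla as with the block. Without the filter on low counts 13, 12, 11 and 7 genes were called for medulla, OM and IM against cortex and OM against IM. Over libraries of at least 20 cells, which leaves out the Bonn OM and IM, the counts were 9, 7, 12 and 4. With thinned cells OM against cortex had 2, IM against cortex 0 and OM against IM 0. Without cells holding macrophage or B cell transcripts they had 3, 0 and 9. RLE factors gave 2 for IM against cortex. Leaving out a facility gave 0 to 10 for the medulla, 3 to 6 for the OM, 0 to 10 for the IM, 1 to 5 for OM against IM, 8 to 13 for the interaction with NK_cell_1 and 0 to 11 for that with T cells. DESeq2 called 0 for both interactions. Among single genes, H2-Ab1 in OM against IM turned to 0.57 without cells holding macrophage or B cell transcripts, the Apoe and Lyz2 interactions with NK_cell_1 ran from -1.49 and -0.07 without Aachen to 7.03 and 6.04 without Hamburg, and the Ccl1 interaction with T cells from -9.93 without Hamburg to 1.69 without Bonn. Of the alternative values for genes called, 79 kept their side of the threshold, 65 lost it and 3 reversed. The cause was not tested. The smallest NK_cell_2 sums were 21325 UMIs in the Aachen OM, 33537 in the Bonn IM and 44568 in the Bonn OM.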

Other observations

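Immediate early and heat shock genes, which cells switch on within minutes of stress or handling, made up a large and uneven part of NK_cell_2 UMIs. Summed over 18 genes they had 30923, 17350 and 26002 CPM in the cortex, OM and IM of Aachen, 7088, 10680 and 9959 CPM at Bonn and 47656, 42878 and 37513 CPM at Hamburg. The facilities did not overlap, and no compartment was highest at all 3. NK_cell_1, with 12964 to 22631 CPM at Aachen, 6202 to 8275 CPM at Bonn and 33127 to 40275 CPM at Hamburg, and T cells, with 7010 to 11221 CPM and 31371 to 40806 CPM at Bonn and Hamburg, also had their highest sums at Hamburg. The sum was higher in NK_cell_2 than in NK_cell_1 in 8 of 8 libraries, and 7 of the 18 genes were higher in every library and 0 lower, beside 3.71% and 2.56% of all genes. ILC2 went the other way, with a median sum of 42838 CPM (11948 to 58098) against 26002 CPM in NK_cell_2. Beside ILC2, 0 of the 18 genes were higher in NK_cell_2 in every library and 5 were lower, beside 303 and 203 of 5236 genes over all. Junb had 538 to 1324 CPM at Bonn and 5461 to 8078 CPM at Hamburg. All 18 genes were tested between medulla and cortex and 0 were called, with a median log2 change of -0.08.

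Gzmc, which encodes granzyme C, was the granzyme that ran higher in NK_cell_2 than in NK_cell_1 in some libraries, and was named after its values were seen. It had 387, 48.4 and 460 CPM in the cortex, OM and IM of Hamburg, 44.2, 44.9 and 0 CPM at Bonn and 0 CPM in all 3 Aachen libraries, against at most 25.2 CPM in NK_cell_1 and at most 9.13 CPM in T cells. Rgs1, a regulator of chemokine receptor signalling used as a residency gene, had a median of 1968 CPM (516 to 4500) in NK_cell_2 against 717 CPM (163 to 1953) in NK_cell_1 and was higher in 8 of 8 libraries.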
